A study of Rattus norvegicus with 12 samples.

Results

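The genes described here are 10 acute phase and reactive astrocyte genes of the rat: Lcn2, A2m, Serpina3n, Ptx3, Osmr, Emp1, S100a10, Cd109, Sphk1 and S1pr3. They were chosen by name, with results of the same arrays already known, so their own ratios at days 1, 3 and 7 are given as a description with no test. By symbol, 8 of the 10 had at least 1 spot on the array, 11 spots in all, of 14871 genes on 23535 spots with 1 gene symbol. Ptx3, a secreted pentraxin of innate immunity, and Cd109, a membrane protein of the alpha-2-macroglobulin family that binds TGF-beta, had no spot under their names and were not analysed here.

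The samples were slices of entorhinal cortex and hippocampus grown together as organotypic co-cultures, in medium with horse serum. After 15 days in vitro the entorhino-hippocampal pathway, the axons running from one piece to the other, was cut with a knife along the whole interface. Each of 12 two-colour arrays compared RNA of axotomized co-cultures with RNA of non-axotomized co-cultures of the same time, 1, 3 or 7 days after the cut. A day had 2 biological replicates and a replicate 2 arrays with exchanged dyes. The organism label is Rattus norvegicus and the array is a rat array, while the treatment protocol names wild type mice, which the sources used here do not settle. Strain, age, and whether a replicate was 1 culture, 1 animal or a pool are not given in the sources used here, so the spread between replicates may be technical.

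Each value is a log2 ratio, read as axotomized over non-axotomized because the titles name the lesioned side first; the direction is likely but not stated, and a table made the other way round would turn every sign. Errors are SDs over the 2 replicates of a day (n = 2), each the mean of its dye pair, and this number of arrays limits the precision. The whole co-culture was extracted, so a change in the number of cells of a type cannot be told apart from a change in RNA per cell. Across genes, which are not independent, the 2 dye-swapped arrays of a replicate correlated with r between -0.08 and 0.47. The lowest r was that of replicate 2 of day 1, where 39.7% of genes had the same sign in both dyes. Next was replicate 1 of day 7, with an r of 0.089 and 45.2% of genes. Between the 2 replicates of a day r was 0.48, 0.40 and 0.29 at days 1, 3 and 7. The files hold ratios and no signal, so no level of a gene or cell type marker can be read from them.

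Acute phase proteins are secreted proteins whose synthesis rises in inflammation, mainly through cytokines that signal by the gp130 receptor and STAT3 and through interleukin-1 and NF-kappaB. In injured brain, astrocytes turn on several of the same genes, and Lcn2, Serpina3n, Osmr and S1pr3 are widely used as markers of reactive astrocytes in general. Emp1, S100a10, Cd109, Sphk1 and Ptx3 are used, mostly from work in mice, as markers of astrocytes after ischemia.

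RefSeq promoters (build GRCr8) were at hand for Lcn2, Serpina3n, Ptx3, Osmr, Emp1, S1pr3 and Sphk1, the last with 3 starts. The letters searched, on both strands of the 250 bases before each start, were TTCNNNGAA for STAT, GGG and CC with any 5 bases between them for NF-kappaB, TTGCNNAA for C/EBP and TGANTCA for AP-1. These letters are common: of 33469 promoters of the table, 7.67% held the STAT letters, 42.3% those of NF-kappaB, 9.22% those of C/EBP and 6.34% those of AP-1. Matches fell in the windows of Lcn2 (3 of NF-kappaB, 1 of C/EBP), Serpina3n (1 of STAT, 2 of NF-kappaB), Emp1 (2 of STAT, 2 of AP-1), Osmr (2 of NF-kappaB, 1 of AP-1), Ptx3 (3 of NF-kappaB, 1 of C/EBP), S1pr3 (2 of NF-kappaB) and 1 of the 3 starts of Sphk1 (1 of STAT). The sequences of Lcn2 and Serpina3n are shown because these genes had the larger ratios among those with an entry. Capitals mark the matches, with overlapping ones joined, and a match is a description and not a site. For Lcn2 the 179 bases upstream of the annotated gene are printed (chr3:36081852-36082030, minus strand), since the rest of its window lies inside the gene. For Serpina3n all 250 bases are printed (chr6:129088142-129088391, plus strand).
Lcn2: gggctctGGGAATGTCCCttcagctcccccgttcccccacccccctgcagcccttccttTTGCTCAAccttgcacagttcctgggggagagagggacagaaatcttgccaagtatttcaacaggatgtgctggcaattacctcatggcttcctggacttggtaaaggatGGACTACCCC
Serpina3n: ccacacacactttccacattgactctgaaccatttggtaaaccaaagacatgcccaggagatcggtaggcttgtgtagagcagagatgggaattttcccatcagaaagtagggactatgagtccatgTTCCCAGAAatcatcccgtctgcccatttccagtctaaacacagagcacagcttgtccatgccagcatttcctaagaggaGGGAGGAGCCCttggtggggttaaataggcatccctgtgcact

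Among the secreted acute phase proteins, Lcn2 lay below 0 on all 12 arrays, A2m changed its sign from day to day, and Serpina3n stood above 0 at day 3. Lcn2 encodes lipocalin-2, a secreted protein that withholds iron from bacteria by binding their siderophores. Its log2 ratios at day 1 were -0.64 and -1.12 with axotomized RNA in Cy5 and -0.50 and -0.45 with it in Cy3 (replicates 1 and 2). At day 3 they were -0.24, -0.24, -0.11 and -0.12 in the same order, and at day 7 -0.41, -0.23, -0.29 and -0.14. The 4 arrays of day 1 lay below all 4 arrays of each later day, although the lowest of them was the Cy5 array of replicate 2. The day means were -0.68 ± 0.15, -0.18 ± 0.0053 and -0.27 ± 0.12, so the mean of day 1 was a 1.60-fold lower ratio on the linear scale. Both spots of Lcn2 were below 0 on average each day, and they differed in size. The spot annotated to the RefSeq transcript had -0.92 ± 0.21 at day 1, and the spot annotated to an EST record had -0.44 ± 0.093. On the second spot the Cy3 arrays of day 1 read -0.23 and -0.03 and the Cy5 arrays -0.52 and -0.99.

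A2m encodes alpha-2-macroglobulin, a secreted trap for proteases and a strong acute phase protein of the rat. At day 1 its ratios were -0.38 and -0.50 in Cy5 and -0.075 and -0.16 in Cy3. At day 3 they were 0.80 and 0.79 in Cy5 and 0.80 and 1.07 in Cy3, and at day 7 they were -0.33 and -0.20 in Cy5 and -0.44 and 0.035 in Cy3. All 4 arrays were below 0 at day 1, all 4 above 0 at day 3, and 3 of 4 below 0 at day 7, with no overlap between day 3 and either other day. How many of all genes separate days in this way was not counted, so nothing is read from it here or for the other genes described. The means were -0.28 ± 0.071, 0.86 ± 0.090 and -0.23 ± 0.22, and the day 3 mean is a 1.82-fold higher ratio. From day 1 to day 3 the mean shifted by 1.14, and from day 3 to day 7 by -1.10. A2m has 1 spot, so its values cannot be set against a second one.

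Serpina3n encodes a secreted inhibitor of serine proteases. Its ratios at day 3 were 0.27 and 0.32 in Cy5 and 0.21 and 0.44 in Cy3, a mean of 0.31 ± 0.10 or a 1.24-fold higher ratio. All 4 of these arrays lay above every array of days 1 and 7, which together ran from -0.13 to 0.097. The means of days 1 and 7 were -0.046 ± 0.096 and 0.024 ± 0.073, both smaller than their SD.

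**Figure D1:**
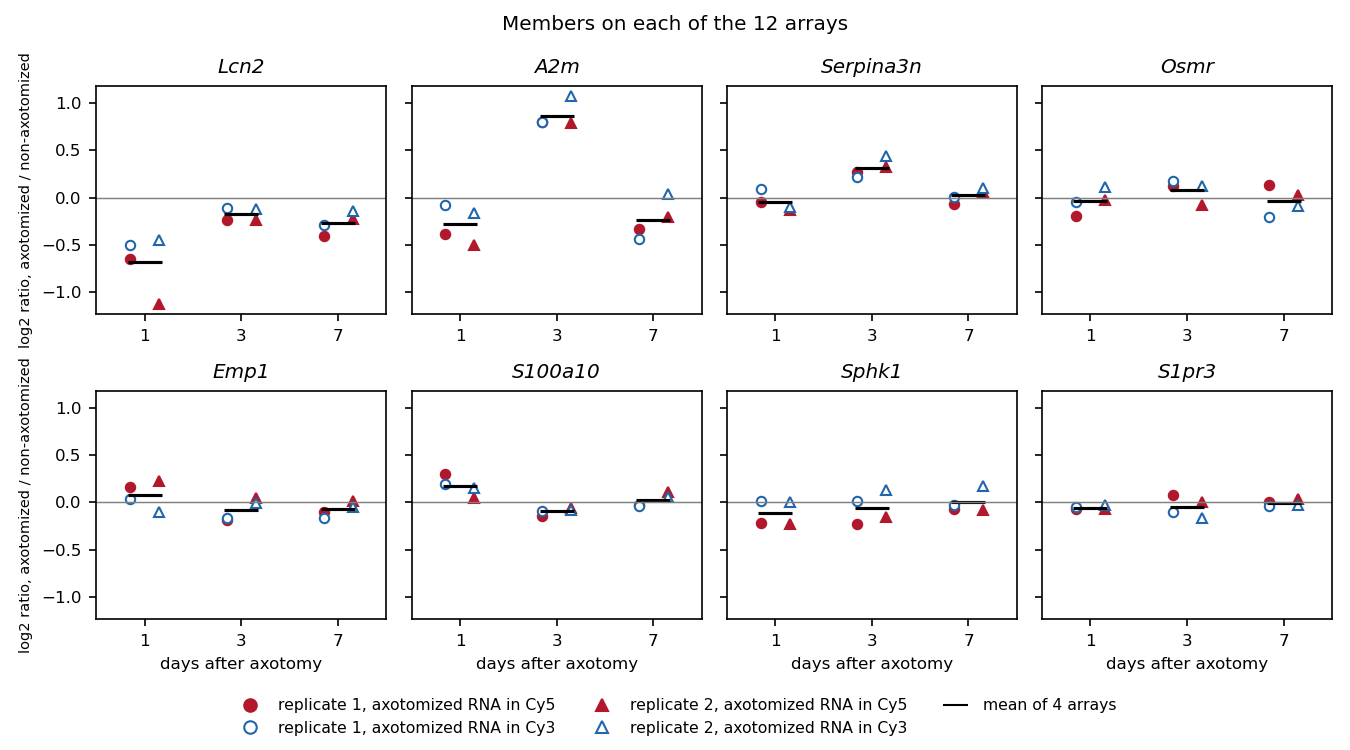
Log2 ratio of axotomized over non-axotomized co-cultures (y axis) by days after axotomy (x axis) for the 8 genes with a spot; symbols are single arrays, circles replicate 1 and triangles replicate 2, filled with axotomized RNA in Cy5 and open with it in Cy3, and bars are means of 4 arrays. Lcn2 is below 0 on all 12 arrays, A2m is above 0 on all 4 arrays of day 3 with 1.07 as its highest, and Osmr, Emp1, Sphk1 and S1pr3 lie between -0.23 and 0.22.

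Osmr encodes the receptor subunit that, with gp130, binds the cytokine oncostatin M. Its 12 arrays ran from -0.20 to 0.17, with both signs on every day. Its means were -0.039 ± 0.12, 0.085 ± 0.091 and -0.032 ± 0.0046 at days 1, 3 and 7, and those of days 1 and 3 were smaller than their SD.

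S100a10 encodes the small partner of annexin A2 that helps place membrane proteins and bind plasminogen at the cell surface, and Emp1 a membrane protein with 4 predicted passes through the membrane, related to PMP22. S100a10 was above 0 on all 4 arrays at day 1 (0.30 and 0.043 in Cy5, 0.20 and 0.15 in Cy3) and below 0 on all 4 at day 3 (-0.14, -0.061, -0.093 and -0.083 in the same order). Its means were 0.17 ± 0.11, -0.094 ± 0.032 and 0.026 ± 0.081, so the 2 earlier days did not overlap. That pattern came from 1 of its 2 spots. The spot annotated to the RefSeq transcript had 0.45 ± 0.25, -0.20 ± 0.083 and 0.084 ± 0.15 at days 1, 3 and 7, and the spot of another GenBank record had -0.11 ± 0.030, 0.011 ± 0.019 and -0.031 ± 0.0069. The spots thus had opposite signs on each day, and the mean over both describes neither. Emp1 ran from -0.19 to 0.22 over the arrays, with means of 0.077 ± 0.026, -0.079 ± 0.14 and -0.075 ± 0.085. Its 2 spots, both annotated to the RefSeq transcript, had nearly the same mean at day 1 (0.076 ± 0.042 and 0.078 ± 0.011). The first of them read 0.26 and 0.31 in Cy5 and -0.05 and -0.22 in Cy3, so its sign followed the dye.

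**Figure D2:**
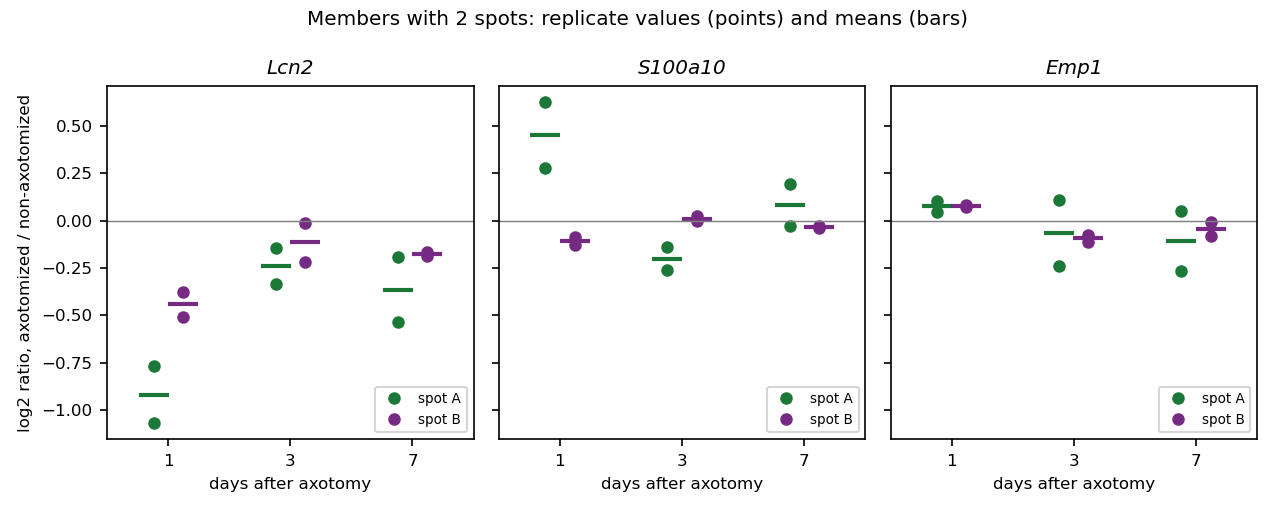
Log2 ratio of axotomized over non-axotomized co-cultures (y axis) by days after axotomy (x axis) for the 3 genes with 2 spots; points are the 2 biological replicates with dyes averaged, bars their mean, green spot A and purple spot B, where spot A of Lcn2 and S100a10 is the one annotated to the RefSeq transcript. The spots of Lcn2 share a sign on each day (-0.92 and -0.44 at day 1), while those of S100a10 are on opposite sides of 0 (0.45 and -0.11 at day 1).

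Sphk1 encodes a kinase that makes the lipid signal sphingosine 1-phosphate, and S1pr3 one of its receptors at the cell surface. Sphk1 had means of -0.11 ± 0.0081, -0.059 ± 0.070 and 0.0026 ± 0.067. The small SD at day 1 hides a split by dye, since the Cy5 arrays read -0.22 and -0.23 and the Cy3 arrays 0.01 and 0.00. Over all days the 6 Cy5 arrays of Sphk1 were below 0 (-0.23 to -0.065), and 5 of the 6 Cy3 arrays were above 0 (-0.024 to 0.18). S1pr3 had means of -0.056 ± 0.0059, -0.047 ± 0.050 and -0.0066 ± 0.017, with arrays from -0.16 to 0.074. Its 6 Cy3 arrays were all below 0, as were 3 of its 6 Cy5 arrays.

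As a group the 8 genes did not move in 1 direction. At day 1, 2 were above 0 and 6 below, with a median of -0.051, against a median of 0.0098 and 56.4% above 0 among all genes. At days 3 and 7, 3 were above 0 and 5 below, with medians of -0.053 and -0.019, where all genes had medians of 0.0063 and 0.0033. The sign was the same on all 4 arrays for 4 genes at day 1 (Lcn2, A2m and S1pr3 lower, S100a10 higher), where 18.7% of all genes had this. It was so for 4 at day 3 (A2m and Serpina3n higher, Lcn2 and S100a10 lower) against 23% of all genes, and for Lcn2 alone at day 7 against 17.4%. S100a10 is counted here by the mean over its 2 spots, whose day means had opposite signs.

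In limma's fit over all genes, with Benjamini-Hochberg adjustment and an adjusted p under 0.05, 1 of the 8 was called at day 1 (Lcn2, lower) and 1 at day 3 (A2m, higher). Of all genes, 88 or 0.592% were called at day 1, 33 or 0.222% in the lower direction, and 153 or 1.03% at day 3, 88 or 0.592% higher and 65 or 0.437% lower. None was called at day 7, among the 8 or among all genes (0%), although 1393 genes had an unadjusted p under 0.05. For the difference of day 3 from day 1 none of the 14871 genes was called (0%, with 1316 at an unadjusted p under 0.05), and for that of day 7 from day 3 there were 53 (0.356%), A2m among them. In the fit of single spots no spot of the 8 genes was called, where 2 of 44290 spots (0.00452%) were at day 1 and 45 (0.102%) at day 3. Since the genes were chosen with these contrasts known, nothing is read from their calls. Neither the call of Lcn2 nor that of A2m held without either replicate of day 1 or of day 3. Every gene lost its call at day 1 without either replicate of day 3, and its call at day 3 without either of day 1. Nearly every gene also lost its call when a replicate of the same day was left out. Those losses are thus not particular to Lcn2 and A2m. Without replicate 1 or 2 of day 1 the mean of Lcn2 was -0.79 and -0.57, and without replicate 1 or 2 of day 3 that of A2m was 0.93 and 0.80. After quantile normalization between arrays neither was called, with means of -1.05 for Lcn2 at day 1 and 1.68 for A2m at day 3. With the replicate block Lcn2 was not called at day 1. The call of A2m between days 7 and 3 was lost with the replicate block, with Cy3 arrays only, after quantile normalization, and without any single replicate other than replicate 2 of day 7. With the replicate block, and without any single replicate other than replicate 2 of day 7, every gene lost that call. Those losses are thus not particular to A2m.

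The genes most like A2m and Lcn2 over the 6 replicate values were taken from 453 genes with a day mean of at least 0.4 in size, and the correlations are a description over points that share arrays and tissue. Those most like A2m, with Pearson's r from 0.96 to 0.99, were Rhob, a small GTPase, Cxcl12, a chemokine, Fam89a, Slc7a10, an amino acid transporter, and Ogn, a small proteoglycan. Their day 3 means were 0.41, 0.60, 0.64, 0.42 and 0.44, each smaller than the 0.86 of A2m. Those most like Lcn2, with r from 0.95 to 0.97, were the early response gene Ier3, the hyaluronan synthase Has2, the transcription factors Klf4 and Myc and the chemokine Cxcl1. Their day 1 means were -0.59 for Ier3, -0.49 for Has2, -0.81 for Klf4, -0.97 for Myc and -1.83 for Cxcl1, so all but Ier3 and Has2 lay further from 0 than Lcn2.

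**Figure D3:**
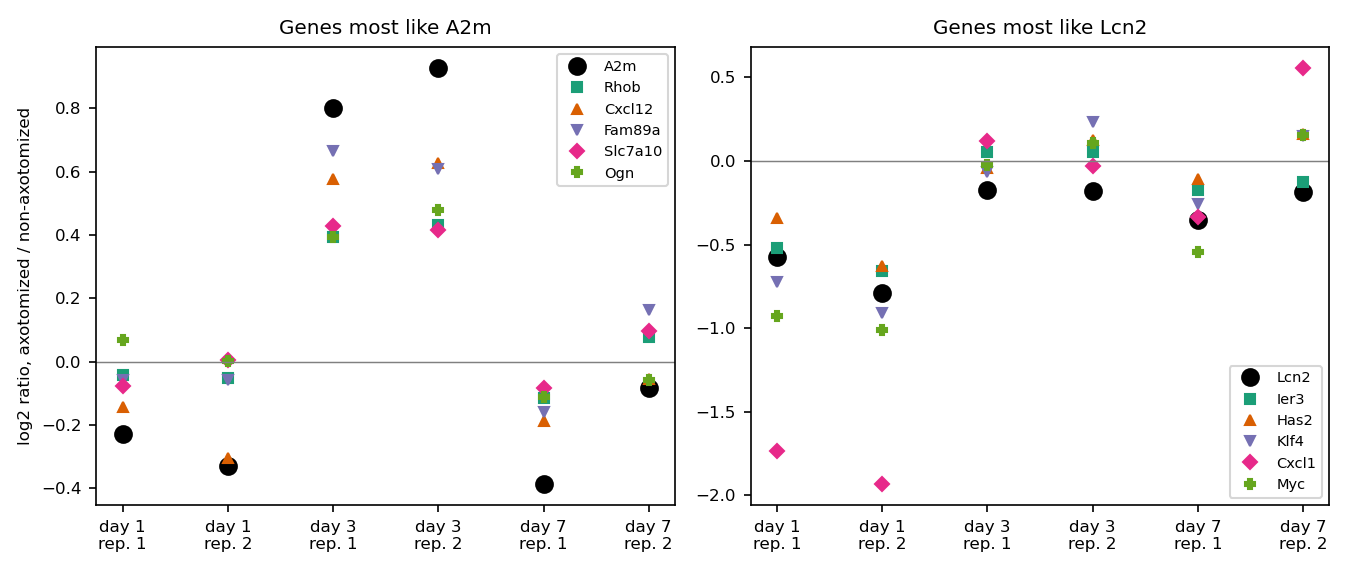
Log2 ratio of axotomized over non-axotomized co-cultures (y axis) in the 6 biological replicates (x axis) for A2m with the 5 genes most like it (left) and Lcn2 with the 5 most like it (right); each point is 1 replicate with dyes averaged. The A2m set peaks in both replicates of day 3 and the Lcn2 set is lowest in both replicates of day 1, which is what the choice by correlation selects.

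Other genes tied to reactive astrocytes did not share 1 direction either. Of 9 further pan-reactive genes none passed over all genes on any day, with 4, 3 and 5 above 0 and medians of -0.13, -0.099 and 0.0061. At an unadjusted p under 0.05 there were 6, 4 and 2 of the 9, and 1968, 2146 and 1393 of all 14871 genes. Timp1, an inhibitor of matrix metalloproteases, had 0.83 ± 0.34 at day 1 (limma, adjusted p = 0.052), and Vim, the intermediate filament vimentin, 0.62 ± 0.11, where Lcn2 had -0.68. Cxcl10, an interferon-induced chemokine, had -0.55 ± 0.040 at day 3, and Cp, the copper-binding ceruloplasmin, 0.19 ± 0.014. None of 10 genes listed for inflammation (A1) and none of 7 further genes listed for ischemia (A2) passed on any day, with medians between -0.027 and 0.042. In these lists Srgn, a proteoglycan of secretory granules, had -0.44 ± 0.036 at day 7 and Clcf1, a cytokine of the gp130 family, -0.26 ± 0.021 at day 1. Gfap, the astrocyte filament, named after its values were seen, had -0.13 ± 0.28, -0.012 ± 0.095 and 0.18 ± 0.23, each within its SD. Its mean at day 1 was -0.59 in Cy5 and 0.33 in Cy3, so its sign followed the dye.

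Of 19 further acute phase proteins and protease inhibitors, none passed, and the medians were -0.0040, 0.027 and -0.026. The list was not split by the direction in which a gene moves in inflammation, so its medians may pool unlike genes. At an unadjusted p under 0.05 there were 3, 7 and 3 of the 19, where 1968, 2146 and 1393 of all 14871 genes were. Itih3, a protein that binds hyaluronan, had 0.50 ± 0.048 at day 3, the day on which A2m and Serpina3n were high, and Serping1, the C1 inhibitor, had -0.21 ± 0.054, 0.16 ± 0.021 and -0.17 ± 0.030. Tf, the iron carrier transferrin, had -0.36 ± 0.024 at day 1 (limma, adjusted p = 0.052) and -0.36 ± 0.12 at day 7. Of 12 receptors and partners of the 10 genes none passed. Slc22a17, a receptor for lipocalin-2, had -0.20 ± 0.24 at day 1 and 0.38 ± 0.17 at day 3.

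Upstream signals were tested as single genes over the whole table. Among 7 cytokines of the gp130 family, Cntf, ciliary neurotrophic factor, fell by 0.94 ± 0.12 at day 3 (limma, adjusted p = 0.026; lost after quantile normalization, adjusted p = 0.13) and no other passed on any day. This call and all calls of list genes given below were lost when either replicate of day 1 or of day 3 was left out. For a call at day 1 or 3, leaving out a replicate of the other of these days ended it for every gene. Leaving out a replicate of the same day ended it for nearly every gene. Those of Icam1, Plpp3 and Aqp4 below were also lost without either replicate of day 7. Osm, the ligand of Osmr, named after its values were seen, had 0.0090 ± 0.11, 0.029 ± 0.021 and -0.016 ± 0.0026. Of 5 gp130-type receptors other than Osmr none passed, and Il11ra1 and Il6r, receptors for interleukins 11 and 6, had 0.32 ± 0.070 and 0.31 ± 0.058 at day 1.

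On day 1, when Lcn2 was lowest, 12 of 14 genes of JAK-STAT3 signalling and its targets were below 0 (median -0.18) and 14 of 15 genes of interleukin-1, TNF and NF-kappaB (median -0.14), where 56.4% of all genes were above 0. None of the former passed (7 at an unadjusted p under 0.05, where 1968 of all 14871 genes were). Of the latter, Cxcl1, a chemokine for neutrophils, fell by 1.83 ± 0.14 (limma, adjusted p = 0.032) and Icam1, an adhesion molecule, by 0.34 ± 0.025 (adjusted p = 0.029). Both calls were also lost with the replicate block (adjusted p = 0.056 and 0.051) and after quantile normalization (adjusted p = 0.40 and 0.16), and that of Icam1 with Cy3 arrays only (adjusted p = 0.071). At day 3 the medians were 0.0080 and 0.023, with 7 of 14 and 11 of 15 genes above 0. Bcl3, a nuclear partner of NF-kappaB, had -0.64 ± 0.12 at day 1 and 0.51 ± 0.0050 at day 3. Cebpd, a transcription factor of the acute phase response, had -0.59 ± 0.060 and 0.48 ± 0.16. Junb and Myc, also of the JAK-STAT3 list, had -0.39 ± 0.091 and -0.97 ± 0.062 at day 1. At day 3 they had 0.040 ± 0.080 and 0.041 ± 0.094. These lists, chosen with earlier results of these data known, differed between the dyes at day 1, as did Lcn2. Below 0 were 13 of 14 and 15 of 15 genes in Cy5, but 8 of 14 and 10 of 15 in Cy3. Over all genes the median of the day 1 arrays was -0.016 and -0.0090 in Cy5, and 0.027 and 0.030 in Cy3 (replicates 1 and 2). The share of all genes below 0 in each dye was not counted. In means, the JAK-STAT3 list had -0.43 in Cy5 and -0.090 in Cy3, the NF-kappaB list -0.34 and -0.22, and Lcn2 -0.88 and -0.48. The part of the dye in these values was not tested.

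Of the other genes of sphingosine 1-phosphate, 1 passed. Among 14 further genes of its synthesis and breakdown, Plpp3, a phosphatase at the cell surface that removes phosphate from the lipid, rose by 0.43 ± 0.053 at day 3 (limma, adjusted p = 0.047), with its 4 spots between 0.15 and 0.56. This call was lost with Cy3 arrays only, the replicate block and quantile normalization (adjusted p = 0.079, 0.082 and 0.092). None of 7 further transporters, carriers and receptors passed on any day. S1pr5, the receptor of oligodendrocytes, had 0.19 ± 0.051 at day 3 and 0.31 ± 0.0077 at day 7, and S1pr2 had -0.12 ± 0.018, 0.10 ± 0.038 and -0.11 ± 0.10. At an unadjusted p under 0.05 there were 3, 7 and 3 of 17 further annexins and S100 proteins, beside 1968, 2146 and 1393 of all 14871 genes. None of the 17 passed on any day, and 10 of 17 were above 0 at day 3. The calcium-binding proteins S100a13 and S100a1 had 0.60 ± 0.22 and 0.45 ± 0.38 on that day, and the annexins Anxa3 and Anxa7, which bind membranes in the presence of calcium, 0.17 ± 0.066 and -0.27 ± 0.0078. Anxa2, the partner of S100a10, named after its values were seen, had 0.051 ± 0.12, -0.32 ± 0.35 and -0.24 ± 0.12. None of 3 relatives of Emp1 passed, with Emp3 at 0.26 ± 0.073 and Emp2 at -0.31 ± 0.14 at day 1.

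**Figure D4:**
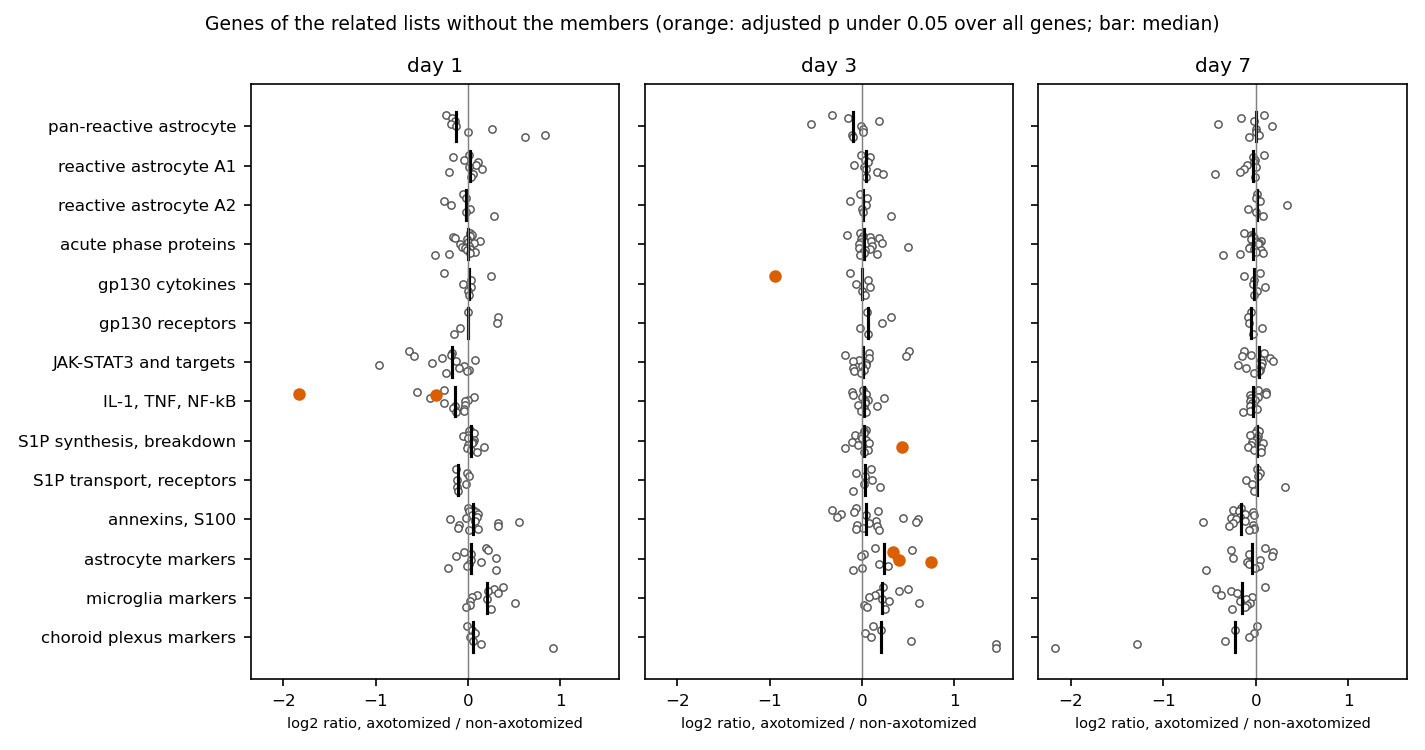
Log2 ratio of axotomized over non-axotomized co-cultures (x axis) for the measured genes of each list (y axis), with the 8 described genes left out, at days 1, 3 and 7; circles are means of 2 replicates, orange ones passed over all genes, and bars are medians. Cxcl1 and Icam1 are the orange points of day 1, Cntf, Plpp3 and 3 astrocyte markers those of day 3, and day 7 has none.

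Markers of the cell types in the co-cultures moved as follows beside these genes. On day 3, with A2m and Serpina3n above 0, the 12 astrocyte markers had a median of 0.23. Above 0 were 9 and below it 3, where 53.8% of all genes were above 0. Below 0 were Gfap, Slc1a3 and Sox9, named after their values were seen (-0.012 ± 0.095, -0.0031 ± 0.0045 and -0.10 ± 0.25). In limma's test 3 markers passed, all higher, where 88 or 0.592% of all genes were called higher. Glul, glutamine synthetase, rose by 0.75 ± 0.023 (adjusted p = 0.014; its 3 spots from 0.010 to 1.19), Gjb6, a connexin, by 0.40 ± 0.016 (adjusted p = 0.023) and Aqp4, a water channel, by 0.34 ± 0.10 (adjusted p = 0.047). The call of Gjb6 was lost with Cy3 arrays only (adjusted p = 0.072), and that of Aqp4 with either dye alone, the replicate block and quantile normalization (adjusted p from 0.052 to 0.42). Per replicate the list's mean was 0.29 and 0.19 at day 3, -0.01 and 0.15 at day 1, and 0.04 and -0.17 at day 7. The 12 microglia markers, none past the threshold, had medians of 0.21, 0.22 and -0.14 at days 1, 3 and 7. On each day 6 had an unadjusted p under 0.05, where 1968, 2146 and 1393 of all 14871 genes did. Their means per replicate were 0.14 and 0.24, 0.29 and 0.21, and -0.13 and -0.21. At day 1 their mean was 0.083 in Cy5 (7 of 12 above 0) and 0.30 in Cy3 (12 of 12). That of the astrocyte markers at day 1 was -0.073 in Cy5 and 0.21 in Cy3. The 8 markers of neutrophils, cells that store lipocalin-2 in their granules, lay between -0.11 and 0.15 at every day. Choroid plexus markers, none past the threshold, were above 0 in 7 of 7 at day 3 and below 0 in 6 of 7 at day 7, with means of 0.21 and 0.91 in the 2 replicates of day 3 and -0.56 and -0.61 in those of day 7. Fibroblast markers had a median of 0.13 at day 3 and endothelial markers one of 0.017, with no gene of either past the threshold. The part of these cell types in the ratios of A2m, Serpina3n and Lcn2 was not tested.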

How the data were processed

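Total RNA of axotomized and non-axotomized co-cultures was amplified, labelled with Cy5 and Cy3 and hybridized to 12 Agilent rat arrays, per the labels' protocols. The deposited table holds a log2 ratio for each of 44290 spots and array, and no value is missing. The authors made it with limma, per the submitters' processing notes, which give no version. How background was corrected and arrays normalized, the log base and the direction are not given in the sources used here; base 2 is limma's convention. Array medians of -0.022 to 0.027 show columns centred near 0, slightly below it on every Cy5 array and slightly above it on every Cy3 array.

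Spots were named by the platform's symbols: 23535 have 1 symbol, 48 several and 20707 none. Spots of a symbol were averaged to 14871 genes, then the 2 dye-swapped arrays of a replicate. limma 3.58.1 in R 4.3.3 fitted 6 values per gene with 1 coefficient per day (3 residual and 2.72 prior degrees of freedom, two-sided, Benjamini-Hochberg over all genes, adjusted p under 0.05). Input used data.table (1.17.8), and Python 3.11.15 with pandas 2.3.3 and matplotlib 3.10.9 drew the figures.

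The genes and lists were chosen with earlier results of these data known. Named from each list were the genes past the threshold and up to 4 others with the smallest p, except where a gene is said to have been named after its values were seen; for likeness, the 5 with the highest r. Alternatives were single dyes, a replicate block, quantile normalization, the median over spots and each replicate left out. Dim spots could not be filtered, since the table holds no intensity.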

Additional observations from a re-analysis of the deposited data

Results flagged for a closer look

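A2m differed between days in sign. Its mean moved by 1.14 from day 1 to day 3, from below 0 on all 4 arrays to above 0 on all 4, a difference that was not called over all genes. It moved by -1.10 from day 3 to day 7, a difference that was called, and 0.356% of all genes were. S100a10 moved by -0.27 from day 1 to day 3, with all 4 arrays above 0 and then all 4 below. This difference was not called over all genes, and it came from 1 of its 2 spots. The share of all genes that changed sides on all 4 arrays between days was not counted.

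On 1 array, that of replicate 2 of day 3 with axotomized RNA in Cy3, A2m had 1.07 while the other 3 arrays of the day lay between 0.79 and 0.80. The gap is wide for the range of 4 values. Among 24 sets of 4 arrays (8 genes, 3 days) it was the 1 set with such a gap. Chance gives about 1 in 20 for independent values, so 1 set among 24 does not stand out. The 4 arrays are 2 replicates in 2 dyes and not independent, so that rate is only a guide. Without the replicate that holds this array the mean of A2m at day 3 was 0.80.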

How the results depend on the processing

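The numbers of genes called over the whole table changed with most settings, and the cause was not tested. At day 1, where 88 were called, there were 654 with Cy5 arrays only, 56 with Cy3 arrays only and 53 with the replicate block, and 0 to 36 when a replicate was left out. At day 3, where 153 were called, there were 298 with Cy5 only, 66 with the replicate block, 75 after quantile normalization and 0 to 84 without a replicate. At day 7, where 0 were called (1393 at an unadjusted p under 0.05), quantile normalization gave 15 and leaving out a replicate 0 to 18. For day 3 against day 1 (0 called, 1316 unadjusted) there were 2 with Cy5 only, 91 after quantile normalization and 0 to 4 without a replicate. For day 7 against day 3 (53 called) there were 4 with Cy5 only, 16 with Cy3 only, 0 with the replicate block and 0 to 19 without a replicate.

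Of the 8 described genes, 1 was called at day 1; there were 3 with Cy5 only (A2m, Lcn2 and Sphk1), 0 with the replicate block or quantile normalization and 0 to 1 without a replicate. The 1 called at day 3 became 0 after quantile normalization and 0 to 1 without a replicate. For day 3 against day 1, Cy5 only gave 1 in place of 0, and for day 7 against day 3 the 1 became 0 with Cy3 only, the replicate block or quantile normalization and 0 to 1 without a replicate. With single dyes or quantile normalization, the settings free to move these means past their SD, 31 of 72 values moved by the SD or more and 9 changed sign, none of them a called value or over 0.11 in size. Quantile normalization gave 1.68 for A2m at day 3 (0.86 as deposited) and -0.76 at day 7 (-0.23), -1.05, -0.27 and -0.53 for Lcn2 at days 1, 3 and 7 (-0.68, -0.18 and -0.27), and 0.36 for S100a10 at day 1 (0.17). Of the 7 list genes past the threshold, under 11 settings each added after seeing the data, none changed sign. All 7 lost the call without either replicate of day 1 or day 3. Every gene did where the replicate was of the other of these days, and nearly every gene where it was of the same day. Glul kept the call under 7 settings, Cntf and Gjb6 under 6, Cxcl1 under 5, Icam1 and Plpp3 under 2 and Aqp4 under 1.

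Same-numbered replicates of different days share only a number: their deviations correlated at 0.26, -0.068 and 0.014 across genes. With ratios alone, signal over background is unknown.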

Other observations

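The other annexin and S100 genes were picked out after their values were seen and were not tested as a list. All 17 were below 0 at day 7, from -0.57 to -0.017 with a median of -0.16, where 52.2% of all genes were above 0. With axotomized RNA in Cy5 17 of 17 were below 0 and in Cy3 12 of 17, and in each of the 2 replicates 16 were. Over all genes the median of the day 7 arrays was -0.0056 and -0.024 in Cy5, and 0.029 and 0.012 in Cy3 (replicates 1 and 2). Named after their values were seen, S100a3, a calcium-binding protein gene, had -0.57 ± 0.11 and S100a6 -0.29 ± 0.082, and no gene of the list passed over all genes at day 7. S100a10 itself had 0.026 ± 0.081 on that day. The microglia markers were on the same side at day 7, with 11 of 12 below 0, and their part in these ratios was not tested.

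Among oligodendrocyte markers 6 of 6 were above 0 at day 7, with a median of 0.40 and list means of 0.49 and 0.17 in the 2 replicates, and none passed over all genes. S1pr5, the sphingosine 1-phosphate receptor of oligodendrocytes, had 0.31 on that day, while Sphk1 had 0.0026 and S1pr3 -0.0066.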
